A study of Homo sapiens with 4 samples.

Results

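The regions described here were 3084 promoter sites at which WDR5 was called without SS18::SSX in DMSO-treated cells and was called again after 4 days of MS67. They were found among 35605 WDR5 peaks of HSSY II cells, an established SS18::SSX1-positive human synovial sarcoma (SS) line. A site was a member when its WDR5 DMSO peak overlapped no SS18::SSX DMSO peak, overlapped a WDR5 MS67 peak by at least 1 bp, and had its centre between 1000 bp upstream and 100 bp downstream of a GENCODE 44 transcription start site of a protein-coding or lncRNA gene (hg38). Members were thus selected on the measured peak calls of 3 libraries. Of the 35605 WDR5 peaks, 30647 (86.1%) overlapped no SS18::SSX peak, 8493 of these lay at a promoter, and 3084 of the 8493 (36.3%, exact 95% interval 35.3 to 37.3%) were kept with MS67. The other 5409 are called lost sites here, which means only that no WDR5 MS67 peak was called over them. Over all 35605 WDR5 peaks, 25.0% were kept, and over the 1373 promoter peaks shared with SS18::SSX the share was 40.7%. These shares come from the calls that defined the members and are given as description. When WDR5 peaks of both lists were held to a −log10 q above 3 and a fold above 6, there were 384 members and 20.9% were kept.

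All 4 libraries were CUT&RUN libraries, in which a nuclease tethered by an antibody releases the DNA around the bound protein. A pair of libraries, 1 for SS18::SSX and 1 for WDR5, came from cells given DMSO, and another pair from cells given 2.5 µM MS67, a PROTAC that joins a WDR5 binder to a ligand of the VHL ubiquitin ligase. Every group was of the same unedited line, treated for 4 days, with 1000000 HSSY II cells and 50000 mouse NIH-3T3 spike-in cells in each library. There was 1 library per condition, so no difference had a replicate check, no test was run, and intervals cover counting error only. Peak lists hold no expression values, so markers of the line were not checked here.

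The libraries differed in depth. The lowest local background in a peak list, taken as the mean coverage of the library, was 0.368 fragments per bp for WDR5 with DMSO and 0.168 for WDR5 with MS67, and the lists held 35605 and 14123 WDR5 peaks. Pileups at peak summits (the number of fragments over the summit) are therefore given as counted and, where stated, divided by the mean coverage of their own library. This scaling corrects for depth alone and holds no spike-in correction, so a global loss of WDR5 is not visible in it. A fold is MACS2's ratio of the summit pileup to the background around the peak, with the same small constant added to both. The constant lowers folds more where counts are low, so folds of libraries of unlike depth are not directly comparable. The −log10 q is MACS2's adjusted significance.

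WDR5 is a WD-repeat scaffold protein. In KMT2 (MLL) and SETD1 complexes it works with RBBP5, ASH2L, and DPY30 in the methylation of histone H3 lysine 4 at active promoters. In many cell types it is also found at promoters of ribosomal protein genes and other genes of protein synthesis, and MYC is among its partners. SS18::SSX is the fusion protein of SS and acts within SWI/SNF complexes.

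To show what the sites look like, 150 bp around the DMSO summit are given for 4 members and 1 lost site, read from hg38 on the strand of the named gene, 5′ to 3′, with CpG dinucleotides in capitals. The first 2 are among the 10 members of highest MS67 −log10 q and hold no annotated exon, the next has the highest DMSO −log10 q under the same condition, the one after it has the lowest MS67-to-DMSO ratio, and the last is the lost site of highest DMSO −log10 q with no exon in its window. They lie at chr20:56468314-56468463 (plus strand), chr7:44574102-44574251 (minus), chr18:21315880-21316029 (plus), chr1:175193020-175193169 (minus), and chr7:73842698-73842847 (minus).
RTF2: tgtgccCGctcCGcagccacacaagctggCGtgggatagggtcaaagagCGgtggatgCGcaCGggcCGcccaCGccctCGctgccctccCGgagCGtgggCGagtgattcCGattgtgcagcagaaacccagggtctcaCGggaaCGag
DDX56: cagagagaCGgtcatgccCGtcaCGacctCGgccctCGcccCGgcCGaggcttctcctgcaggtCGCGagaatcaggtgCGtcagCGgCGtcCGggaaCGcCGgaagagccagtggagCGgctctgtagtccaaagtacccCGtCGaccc
ENSG00000265948: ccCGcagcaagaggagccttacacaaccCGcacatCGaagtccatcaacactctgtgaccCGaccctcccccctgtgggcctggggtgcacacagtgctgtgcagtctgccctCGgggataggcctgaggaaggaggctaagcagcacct
KIAA0040: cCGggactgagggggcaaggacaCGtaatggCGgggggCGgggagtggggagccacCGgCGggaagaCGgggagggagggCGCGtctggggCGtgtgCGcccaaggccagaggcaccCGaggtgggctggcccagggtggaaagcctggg
METTL27 (lost): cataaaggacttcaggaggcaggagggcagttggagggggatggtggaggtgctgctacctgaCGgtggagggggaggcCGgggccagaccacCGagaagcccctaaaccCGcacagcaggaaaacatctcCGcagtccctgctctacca
The windows of RTF2 and DDX56 hold 15 and 18 CpGs, that of KIAA0040 holds 12, and those of ENSG00000265948 and the lost METTL27 site hold 5 each. The GC content of the windows was 62.7% at ENSG00000265948 and METTL27, 67.3% at RTF2, 68.0% at DDX56, and 74.7% at KIAA0040.

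Over the 3084 members the DMSO peaks had a median width of 441 bp (quartiles 276 and 668 bp), a median fold of 5.25, a median −log10 q of 5.81, and a median summit pileup of 15 fragments. The MS67 peaks over them had a median width of 299 bp, a median fold of 5.37, a median −log10 q of 3.89, and a median pileup of 9 fragments. The members were thus peaks of moderate height in both libraries. The lost sites had a median DMSO width of 289 bp, a median fold of 4.63, and a median −log10 q of 4.31, and the ranges of the members and the lost sites overlapped throughout. When the 8493 WDR5-only promoter peaks were split into 5 equal groups by DMSO −log10 q, the share kept was 22.7% in the weakest group and 57.6% in the strongest, with 25.6, 33.2, and 42.5% in between. Since a site counted as kept only when a peak was called in the shallower library, this order is part of how the members were chosen.

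Divided by the mean coverage of each library, the summit pileup with MS67 was a median of 1.34 times that with DMSO (quartiles 1.04 and 1.70), and 655 members (21.2%) had a ratio below 1. Each pileup was taken at the summit of its own library, so the compared positions could differ. The ratio depended on the DMSO pileup. Members with 4 to 9 fragments at the DMSO summit had a median ratio of 1.91, those with 10 to 14 had 1.51, those with 15 to 19 had 1.23, those with 20 to 29 had 1.05, and the 94 members with 30 to 62 had 0.935. The lowest MS67 pileup of any member was 3 fragments, which is 17.8 times the mean MS67 coverage, so a site with few DMSO fragments could be a member only with a ratio that was not low. The MS67 call took part in choosing the members at every DMSO depth, so these ratios describe called peaks only. The spread was wide at every depth, with quartiles of 0.831 and 1.31 among the 622 members with 20 to 29 DMSO fragments.

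**Figure D1:**
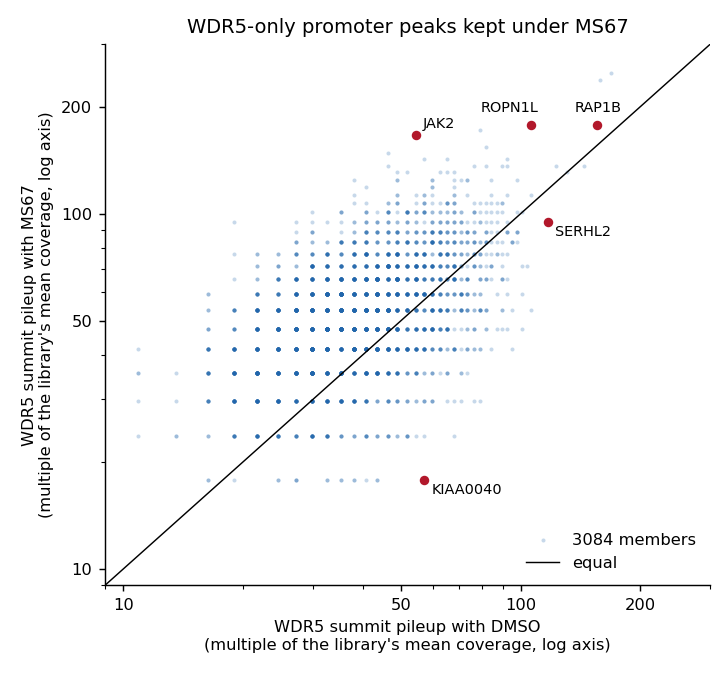
WDR5 summit pileup of the 3084 members with DMSO (x axis) and MS67 (y axis), each as a multiple of the mean coverage of its library, on log axes; points fall on a grid because pileups are whole fragments. Most points at low DMSO pileup lie above the line of equality, points at high DMSO pileup lie on both sides, and JAK2 (ratio 3.05) and KIAA0040 (0.312) mark the extremes among members with at least 20 DMSO fragments.

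The members of highest MS67 −log10 q lay at start sites of genes with varied roles. The first was at ROPN1L, which encodes a protein of the sperm flagellum. It spanned chr5:10440899-10442460, with its summit in an intron of the gene, and had 39 fragments with DMSO (exact Poisson interval 27.7 to 53.3) and 30 with MS67. Its fold was 8.11 with DMSO and 12.3 with MS67, and the coverage-scaled ratio was 1.68. RAP1B, a gene of a RAS-like small GTPase, had the deepest summit of the 10, with 57 fragments with DMSO and 30 with MS67, a ratio of 1.15. Its site, chr12:68610180-68610746, was also among the 5 of highest DMSO −log10 q, and its summit lies in an exon of the lncRNA gene ENSG00000289173. The summits of both libraries were close together at RAP1B (−259 and −274 bp from the start site), while at ROPN1L the summit was at +427 bp with DMSO and at −213 bp with MS67.

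RTF2, a gene of the replication fork, had 22 fragments with DMSO and 18 with MS67 and folds of 9.82 and 12.2. DDX56, which encodes a nucleolar RNA helicase, had 18 and 22 fragments, and HELB, which encodes a DNA helicase, had 30 and 26, with summits at +145 and +135 bp in a coding exon of HELB. At UBE2D4, a gene of a ubiquitin-conjugating enzyme, the counts were 25 and 19. These 4 sites were called with a higher MS67 than DMSO fold, with 10.7 against 8.32 at UBE2D4, 10.8 against 6.37 at DDX56, and 9.49 against 5.53 at HELB. They were chosen for a high MS67 −log10 q, and folds of libraries of unlike depth are not directly comparable, so no gain is read from them. Other sites of the 10 were at the lncRNA genes ENSG00000289900 and ENSG00000286675 and at JAK2, the tyrosine kinase gene of cytokine receptors. The JAK2 site, chr9:4984180-4984509, had its summit at −884 bp from the start site, outside any annotated gene, and had 20 fragments with DMSO (interval 12.2 to 30.9) and 28 with MS67.

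The 5 members of highest DMSO −log10 q were led by SERHL2, a serine hydrolase-like gene with a near-identical copy, so that its reads are uncertain. It had 43 fragments with DMSO and 16 with MS67, a ratio of 0.812. RAP1B and the lncRNA genes ENSG00000273523, ENSG00000234418, and ENSG00000265948 followed. Their ratios were 1.15, 0.472, 0.590, and 0.909, so of the 5 strongest DMSO sites only RAP1B had a coverage-scaled pileup that was higher with MS67. At ENSG00000273523 the fold was 13.4 with DMSO and 6.29 with MS67, from 37 and 8 fragments. The local background there was 1.84 fragments per bp with DMSO and 0.430 with MS67.

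The widest members were single DMSO peaks of 1853 to 2284 bp. The widest, of 2284 bp, lay in promoters of ENSG00000285693 and of ATG16L2, an autophagy gene. It was followed by OXCT1-AS1, PPP1R3G (a glycogen-targeting phosphatase subunit), and MPI (mannose phosphate isomerase). The MS67 peaks covered 25.9% of the widest site and between 28.0 and 57.0% of the sites at these 3. Over all members the MS67 peaks covered a median of 55.4% of the DMSO peak (quartiles 35.6 and 80.5%), and 274 members (8.88%) were covered whole.

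Among the 716 members with at least 20 DMSO fragments, KIAA0040 had the lowest ratio, with 21 fragments with DMSO (interval 13.0 to 32.1) and 3 with MS67, folds of 8.52 and 3.29. Its local background was 1.58 fragments per bp with DMSO and 0.215 with MS67. ENSG00000273416 followed at 0.349 and overlapped its MS67 peak by 1 bp only. MSC-AS1, antisense to the musculin gene, had 29 and 5 fragments, ENSG00000283667 had 28 and 5, and FAM184A had 21 and 4. With MS67 −log10 q of 1.35 to 3.47, all 5 lay below the median of the members (3.89). The highest ratios were those of JAK2 (3.05), THAP2 (2.49), LMBRD1, CCNY, and CUL2 (2.09). The DMSO and MS67 summits of a ratio could lie apart, at −884 and −680 bp from the start site at JAK2. They were at +54 and +1026 bp at CUL2 and at −152 and +342 bp at KIAA0040, but at −16 and −15 bp at THAP2. LMBRD1 serves lysosomal cobalamin export, CCNY encodes cyclin Y, and CUL2 encodes the cullin scaffold of the VHL ubiquitin ligase. The CCNY and CUL2 sites, both on chromosome 10, stood on high local background, 11.2 and 8.17 fragments per bp with DMSO against a median of 1.87 over the members, and their DMSO folds were 2.46 and 2.62. The part of this background in their ratios was not tested.

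The edges of the rule were checked by their nearest sites. The member closest to the upstream edge was at DLX6 (centre at −995 bp, folds of 5.85 and 4.11), and kept WDR5-only peaks at RBMS3 and ENSG00000250385 (both at −1003 bp) fell just outside. Downstream, STARD4 (centre at +100 bp, folds of 5.02 and 6.42) was just inside, and DHODH and CAD (both at +101 bp), which encode enzymes of pyrimidine synthesis, were just outside with folds of 4.58 and 4.56 and of 4.56 and 4.71. Members at OGG1, HOMER3, and BLVRA overlapped their MS67 peak by 1 bp, as did ENSG00000273416, and lost sites at ZNF846, APMAP, and AKR1A1 abutted an MS67 peak with 0 bp between.

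The rule fixed the range of the members' positions but not where within it they lay. Their DMSO summits had a median of −237 bp from the start site (quartiles −468 and −38 bp). In the 8493 WDR5-only promoter peaks, summits more than 500 bp upstream made up 22.8% of the members and 31.5% of the lost sites (exact intervals 21.3 to 24.3% and 30.3 to 32.8%). Because the promoter window is not symmetric, all WDR5-only peaks with their centre within 1000 bp on either side of a start site were also placed. Their summits formed 2 crests, one about 200 bp upstream and a taller one just downstream of the start site, with a trough in between. Of the 4852 kept peaks in this wider window, 17.3% (16.2 to 18.4%) had their summit in the first 150 bp downstream, against 14.2% (13.4 to 14.9%) of the 8342 lost ones, and the stretch from 300 to 150 bp upstream held 12.3% and 11.2%. Per 50 bp, the kept summits numbered 5.76% downstream, 4.09% in the upstream crest, and 2.84% in the last 50 bp before the start site. Kept summits were thus more frequent than lost ones just downstream, and less frequent from 1000 to 500 bp upstream (7.07 against 12.3%). They were not more frequent in the last 50 bp before the start site (2.84 against 3.19%). Summits within 100 bp of the start site made up 20.8% of the members and 20.2% of the lost sites. Position was not split by DMSO −log10 q. The median position of the kept peaks moved to +106 bp in the wider window, so the upstream median of the members follows from the promoter definition.

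**Figure D2:**
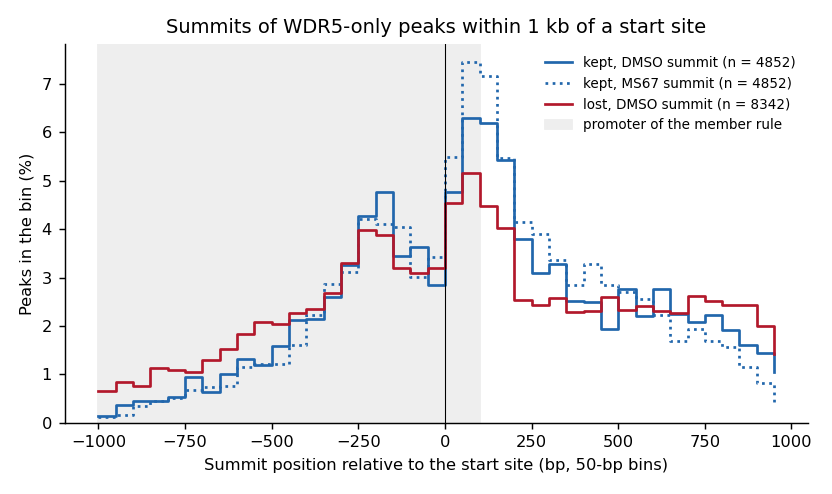
Share of summits (y axis, percent of peaks in each 50-bp bin) against position from the start site (x axis, bp) for WDR5-only peaks centred within 1000 bp of a start site: 4852 kept peaks at their DMSO summit (blue line) and MS67 summit (blue dots) and 8342 lost peaks (red), with the promoter of the member rule in grey. Both groups show a crest upstream and a taller one downstream of the start site, and the kept peaks are higher in the first 150 bp downstream (17.3 against 14.2%).

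The position of the summit varied between the libraries. The MS67 summit lay a median of 103 bp from the DMSO summit (quartiles 41 and 237 bp), within 50 bp at 925 members (30.0%), and on the other side of the start site at 603 (19.6%). In the MS67 library 72.1% of the members had their summit upstream of the start site, against 77.7% with DMSO. The 3084 members were matched to 3036 MS67 peaks, and 96 members shared an MS67 peak with another member.

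By annotation of basic transcripts, the DMSO summit lay in an exon at 1122 members (36.4%), in an intron at 1007 (32.7%), and outside any protein-coding or lncRNA gene at 955 (31.0%). A lncRNA start site was the assigned one at 655 members (21.2%) and at 22.0% of the lost sites. The promoters holding a member belonged to 3407 genes. Of the 20033 protein-coding genes, 2633 (13.1%) had a member, and of the 18866 lncRNA genes, 774 (4.10%). At 441 members (14.3%) the centre lay in promoters of 2 or more genes, such as HARS1 with HARS2, SARS2 with MRPS12, RPS27A with CLHC1, MRPL40 with HIRA, PSMB9 with TAP1, and THAP2 with ZFC3H1. There were 7 genes with 3 members each, at separate start sites or side by side: AXL, CCNE2, FAM228B, NDUFAF6, PFKM, SMARCA2, and ZNF331.

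Bidirectional promoters were more frequent at the members than over all start sites under the promoter rule used here, but not in a symmetric window. An opposite-strand start site within 1000 bp upstream of the assigned one was annotated at 849 members (27.5%, 26.0 to 29.1%), at 22.5% (21.4 to 23.6%) of the lost sites, and at 16909 of all 84607 start sites. This difference narrowed with the symmetric window of 1000 bp on either side, in which the shares were 19.7% (18.6 to 20.9%) of the kept and 18.6% (17.8 to 19.4%) of the lost peaks.

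Members were GC-rich. The 201 bp around the DMSO summit had a median GC content of 64.2% (quartiles 58.2 and 69.2%) at the members, 61.2% (54.2 and 68.2%) at the lost sites, and 65.7% at promoter peaks shared with SS18::SSX. The observed-to-expected CpG ratio, which is near 1 in DNA that has not lost its CpGs, had medians of 0.680, 0.616, and 0.685. Around the assigned start site itself the members and lost sites were closer, at 68.7 and 68.2% GC. Windows at all start sites had a median of 60.7% (quartiles 49.3 and 70.1%). The CpG ratio of these start-site windows was 0.851 at the members, 0.838 at the lost sites, and 0.640 over all start sites. By GC content of the summit, the share kept was 22.9% (20.9 to 25.0%) in the lowest of 5 equal groups and 34.3, 40.6, 43.9, and 39.8% in the next 4, so the lowest group stood apart and the highest was not the one most often kept. Stronger peaks are kept more often, so the groups were crossed with DMSO −log10 q. Kept sites had the higher median GC content in each of the 5 strength groups, by 3.98 percentage points in the weakest, 3.48, 1.99, and 1.99 in the next, and 1.49 in the strongest.

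**Figure D3:**
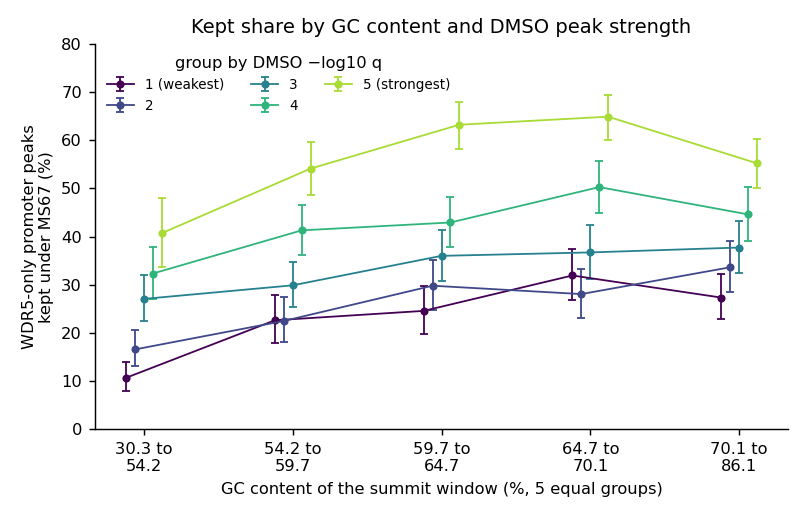
Share of WDR5-only promoter peaks kept under MS67 (y axis, percent, with exact 95% intervals) by GC content of the 201-bp DMSO summit window (x axis, 5 equal groups) within 5 equal groups by DMSO −log10 q (colours, weakest to strongest). In every strength group the lowest GC group has the smallest share, from 10.7% in the weakest peaks to 40.7% in the strongest.

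A set of 11 sequence motifs was searched as exact letters on both strands in the same 201-bp windows. None of them contains another. GGGCGG, the core of SP and KLF sites, was present at 40.0% (38.3 to 41.8%) of the member summits, 34.3% (33.1 to 35.6%) of the lost ones, and 38.8% of windows centred on all start sites. CCAAT, the core of NFY sites, was present at 14.2% of the members, 16.7% of the lost sites, and 24.1% of all start sites. CCGGAAG, an ETS motif, was present at 4.73, 3.90, and 8.60%, the YY1 motif AAGATGGC at 0.811, 0.740, and 2.72%, the NRF1 core GCGCATGC at 1.23, 0.869, and 2.28%, and TATAAA at 1.75, 2.96, and 6.86%. The NFY, ETS, YY1, NRF1, and TATA letters were thus less frequent at the member summits than in windows centred on all start sites, and the SP/KLF letters were not. Summit windows and start-site windows lie at different positions, so these shares do not compare members with other promoters at the same place.

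In windows centred on the assigned start sites, the ETS motif was found at 452 members (14.7%, 13.4 to 16.0%), 10.8% (10.0 to 11.7%) of the lost sites, 8.59% (7.17 to 10.2%) of promoters shared with SS18::SSX, and 8.60% of all start sites. Within the groups by DMSO −log10 q, the members held it more often in the 4 weaker groups, at 19.7 against 11.9% in the weakest, 18.2 against 10.8%, 14.7 against 11.6%, and 15.8 against 9.43%, while the strongest group had 10.2 against 9.71%. The intervals of kept and lost sites did not overlap in the weakest group, the one next to it, and the one below the strongest. The SP/KLF letters were present at 63.1% of the members, 59.1% of the lost sites, and 38.8% of all start sites, and the NFY letters at 23.2, 23.1, and 24.1%. In the same order, the NRF1 core was present at 3.47% (2.85 to 4.18%), 3.31%, and 2.28%. The YY1 motif was present at 3.15% (2.56 to 3.82%), 3.20%, and 2.72%, and TATAAA at 2.43, 3.24, and 6.86%. The remaining motifs were the E-box CACGTG, the cAMP response element TGACGTCA, ACTACAA of ZNF143/THAP11, the palindrome CTCGCGAG, and the AP-1 site TGACTCA. Each was present at 0.908 to 6.13% of member start sites, and the intervals of members and lost sites overlapped. The E-box was present at 6.13% (5.31 to 7.03%) of the members, 5.99% of the lost sites, and 4.98% of all start sites. For AP-1 the shares were 1.88% (1.43 to 2.42%), 2.02%, and 3.04%. The members' interval for the cAMP response element, 1.72 to 2.79%, lay above its share of all start sites, 1.42%. For ACTACAA and CTCGCGAG the intervals of members and all start sites overlapped. A match here describes letters in a window and not a bound site.

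Genes of protein synthesis were looked at first among 21 gene lists, against the 13.1% of protein-coding genes with a member. Mitochondrial ribosomal protein genes had the highest share, with a member at 23 of 78 (29.5%, 19.7 to 40.9%). The strongest by MS67 −log10 q were MRPL55, with 13 fragments with DMSO and 14 with MS67 and folds of 5.52 and 8.27, and MRPS28, MRPL40, and MRPS27, with folds of 5.51 and 7.84, 5.23 and 7.46, and 8.10 and 7.26. Another 23 of these genes had lost sites and no member, and 2 had a peak shared with SS18::SSX. WDR5 peaks of any kind lay at 48 of 78 promoters (61.5%) against 36.8% of all protein-coding genes. Among genes with a WDR5 peak, the share with a member was 47.9% for mitochondrial ribosomal protein genes and 35.7% for all protein-coding genes. The interval of the former was 33.3 to 62.8%.

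Cytosolic ribosomal protein genes, a textbook WDR5 target group, had a member at 10 of 88 (11.4%, 5.59 to 19.9%), a share near the background. The 10 were RPL3, RPL10, RPL10A, RPL26L1, RPL27, RPL30, RPL37, RPL7L1, RPLP1, and RPS27A, of which RPL26L1 and RPL7L1 encode related proteins rather than the usual subunits. The other 18 of the 28 genes with a WDR5 promoter peak had lost sites, and none of the 28 had a promoter peak shared with SS18::SSX, a count that allows a share of up to 10.7% (3 counts of 28, the limit used here for a count of 0). Among all protein-coding genes with a WDR5 promoter peak, 15.2% had a shared one. Other lists without a shared peak were splicing factors (0 of 28), RNA polymerase and SWI/SNF subunits (0 of 14 each), KMT2 complex subunits (0 of 6), and replication-dependent histones (0 of 3). The 10 sites were of ordinary height, with DMSO folds from 3.68 to 6.79, MS67 folds from 4.15 to 6.71, and ratios from 0.727 to 2.38 (median 1.48, against 1.34 over all members). RPS27A had 11 fragments with DMSO and 12 with MS67, and RPL10, RPLP1, and RPL37 had 13 each with DMSO and 9, 10, and 10 with MS67.

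Translation initiation and elongation factor genes had a member at 12 of 57 (21.1%, 11.4 to 33.9%), among them EEF1A1, the main elongation factor, with 24 fragments with DMSO and 15 with MS67, and EIF3K, EIF4G2, and EEF1G. Small nucleolar RNA host genes had a member at 7 of 31 (22.6%, 9.59 to 41.1%), including GAS5, SNHG15, ZFAS1, and SNHG29, against 4.10% of lncRNA genes. Their DMSO folds were 3.20 to 5.36 and their MS67 folds 3.96 to 5.38. The tRNA synthetase genes had a member at 7 of 36, and 1 peak served both HARS1 and HARS2 with 11 and 10 fragments. For RNA polymerase subunits the count was 6 of 31, for splicing factors 10 of 61, for DNA replication 6 of 43, for the respiratory chain and ATP synthase 11 of 86, and for the proteasome 5 of 48. The intervals of these protein-coding lists, other than that of the mitochondrial ribosomal proteins, all included 13.1%, and that of the small nucleolar RNA host genes lay above 4.10%. Among genes with a WDR5 peak, however, the host genes had a member at 41.2% (18.4 to 67.1%) and all lncRNA genes at 33.7%. WDR5 peaks of any kind lay at 54.8% of the host genes and 12.2% of lncRNA genes.

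The shares of the chromatin lists all had intervals that included the background of 13.1%. SWI/SNF subunit genes had a member at 5 of 27 (18.5%, 6.30 to 38.1%), namely SMARCA2 (an ATPase), SMARCC1, SMARCD3, BCL7B, and SS18, the partner of the fusion itself. The SS18 site had 22 fragments with DMSO and 12 with MS67, folds of 6.65 and 4.97. SMARCA2 had 3 members, of which the strongest with MS67 had 27 and 21 fragments and folds of 4.89 and 8.27. Among KMT2 complex genes 2 of 20 (10.0%, 1.23 to 31.7%) had a member, DPY30 with 23 and 8 fragments and PAXIP1 with 13 and 9. Polycomb genes had a member at 7 of 32 (21.9%, 9.28 to 40.0%), with KDM2B (22 and 20 fragments), RBBP7, YAF2, and PHF19 the strongest with MS67.

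Chromosome 19 zinc finger genes, mostly repressors of the KRAB family, had a member at 37 of 246 (15.0%, 10.8 to 20.1%). Their 40 members had a median ratio of 1.76, against 1.34 over all members, and ZNF417 had the highest ratio of any member, 4.99, from 7 fragments with DMSO and 16 with MS67. The ratio was higher at members with few DMSO fragments, and these 40 had a median DMSO −log10 q of 4.88, against 5.81 over all members. The part of DMSO depth in their ratio was not tested. ZNF446, ZNF805, and ZNF540 followed by MS67 −log10 q. Genes of this family have similar copies, so part of their reads is uncertain.

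None of the 39 HOX genes had a member, which by the limit of 3 counts allows a share of up to 7.69%, with an exact interval up to 9.03%. None of the 69 replication-dependent histone genes had one either, with a limit of 4.35% and an exact interval up to 5.21%. The HOX genes had a WDR5 promoter peak at 9 of 39, of which 7 had lost sites without a member and 2 a peak shared with SS18::SSX. For the histone genes, which carry many near-identical copies, only 3 had any WDR5 promoter peak. None of 19 SOX genes had a member, but a count of 0 in 19 allows up to 15.8% (exact interval up to 17.6%), which is above the background. Forkhead genes had a member at 3 of 51 (5.88%), WNT and Frizzled genes at 3 of 29 (10.3%), potassium channels at 9 of 95 (9.47%), and collagens at 6 of 44 (13.6%), all with intervals that included 13.1%. Of these, KCND2, a potassium channel gene, had the highest DMSO −log10 q among those named, with 24 and 13 fragments, and COL13A1 had 31 and 14.

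**Figure D4:**
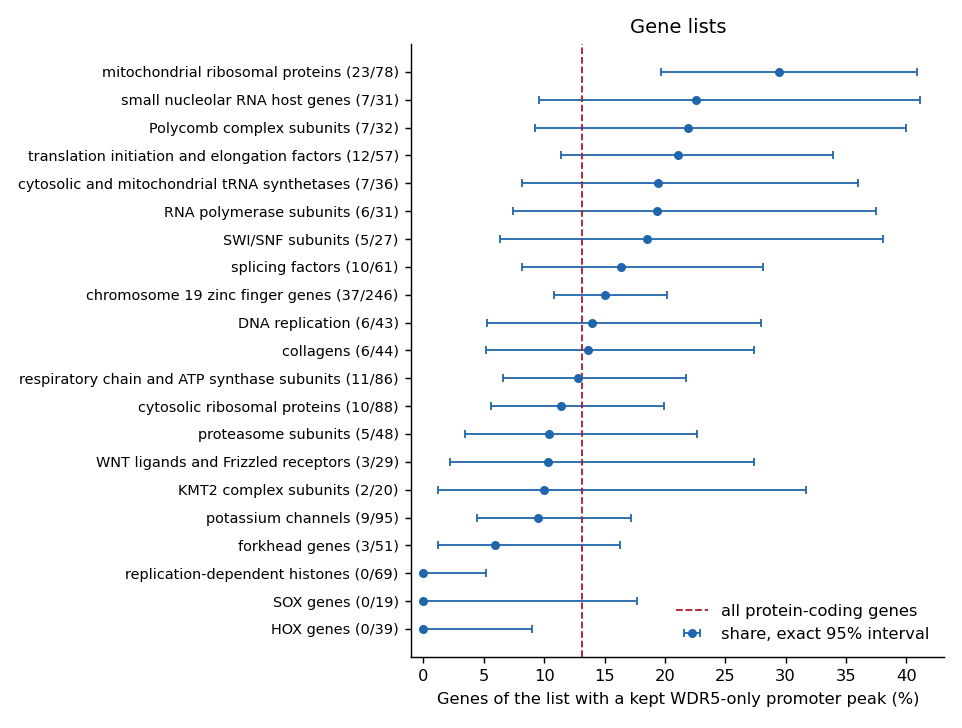
Share of the genes in each of 21 lists with a member at a promoter (x axis, percent, with exact 95% intervals; counts beside the names), and the share of all protein-coding genes (dashed line, 13.1%). The interval of the mitochondrial ribosomal protein genes lies above the line, those of the HOX and replication-dependent histone genes lie below it, and the other intervals include it; the small nucleolar RNA host genes are noncoding.

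In the MS67 library, SS18::SSX peaks were rare at members and lost sites alike, and both were chosen to lack SS18::SSX with DMSO. An SS18::SSX MS67 peak overlapped 3 members (0.0973%, 0.0201 to 0.284%), at B3GNT7, CDPF1, and ZDHHC11, the last with a near-identical copy. It overlapped 8 of the lost sites (0.148%, 0.0639 to 0.291%) and 64 of the 1373 promoter peaks shared with SS18::SSX in DMSO (4.66%). The intervals of members and lost sites overlapped, and the SS18::SSX MS67 list held 1175 peaks in all. The nearest SS18::SSX DMSO peak was a median of 78.7 kb from a member and 64.7 kb from a lost site, and it lay within 1 kb at 11.1% (10.0 to 12.3%) of the members and 15.2% (14.3 to 16.2%) of the lost sites.

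The share kept differed among the autosomes and X. It was highest on chromosomes 18 (51.0%, 42.9 to 59.0%, 80 of 157 peaks) and 7 (48.7%, 44.0 to 53.5%, 213 of 437) and lowest on chromosomes 11 (26.5%, 22.5 to 30.7%, 123 of 465) and 14 (30.1%, 24.6 to 36.0%). Chromosomes 10, 21, and 8 followed at 43.9, 42.4, and 42.2%. The same 5 chromosomes had the highest median local background under WDR5 DMSO peaks, 2.14 to 2.54 fragments per bp, against 1.37 to 1.95 on the other autosomes and X. Across the 23 chromosomes without Y, Spearman's rho of the share kept was 0.84 with the share expected from the DMSO −log10 q groups of the peaks, 0.72 with the median DMSO pileup, 0.68 with the median DMSO −log10 q, 0.57 with the WDR5 DMSO background, 0.65 with the WDR5 MS67 background, and 0.19 with the background in the SS18::SSX DMSO list. The expected share was taken from the kept calls of these same peaks, and DMSO strength took part in choosing the members. The rhos with strength are therefore description only. Chromosomes share the libraries, and more fragments over a region raise background and pileup alike. The expected share was 40.5% on chromosome 18, 39.3% on 7, and 34.0% on 11, against the observed 51.0, 48.7, and 26.5%. The part of local background in these shares was not tested. Without the 100 bins of 1 Mb with the highest WDR5 DMSO background, 2970 members remained and the share kept over the genome was 36.3%. A single share over the genome cannot test the differences between chromosomes.

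**Figure D5:**
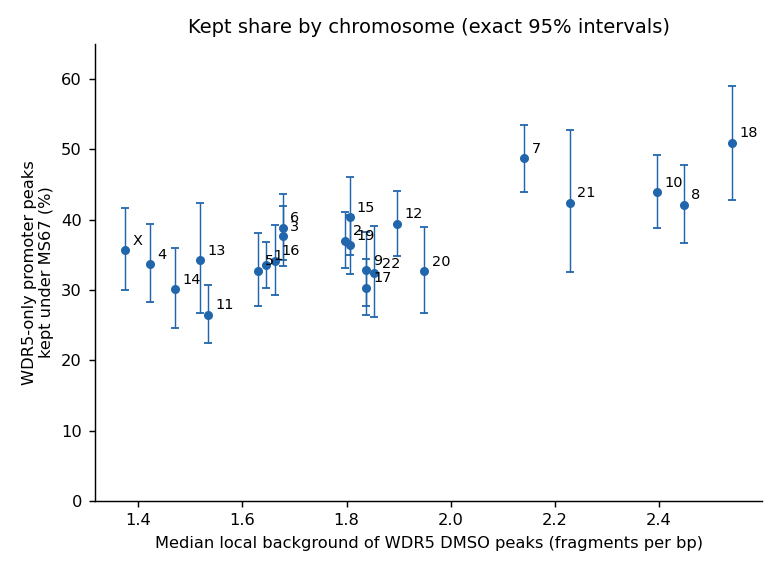
Share of WDR5-only promoter peaks kept under MS67 (y axis, percent, exact 95% intervals) against the median local background of WDR5 DMSO peaks (x axis, fragments per bp) for 22 autosomes and X. Chromosomes 7, 8, 10, 18, and 21 lie apart on the right with shares of 42.2 to 51.0%, and chromosome 11 has the lowest share.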

How the data were processed

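The data were 4 CUT&RUN peak lists, 1 library each. Per the submitters' processing notes and the study's methods, the authors aligned reads to hg38 (mm10 for the spike-in), removed duplicates with Picard, and called peaks with MACS2. The MACS2 options and any control library are not given in the sources used here. For comparing peak sets, the authors' supplement sets −log10 q above 3 with a fold above 6 for WDR5 and above 3 for SS18::SSX. The deposited lists hold weaker peaks too, and the WDR5 limits were applied as an alternative. The deposited values were positions (unit other), the fold (a ratio) at the summit, −log10 p, and −log10 q. The deposited score repeats −log10 q and was not used.

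Summit pileup and background were recovered from fold and −log10 p as whole fragments, which fitted 100% of the peaks to within 0.001. The step was checked on simulated data. Each promoter peak was assigned to the nearest start site among 84607 of basic GENCODE 44 transcripts. Shares have exact Clopper-Pearson intervals at 95%, and pileups exact Poisson ones. Sequences were from hg38. Named sites are the 10 of highest MS67 −log10 q, 5 each of highest DMSO −log10 q, width, and highest or lowest ratio (at least 20 DMSO fragments), those at the rule's edges, and up to 4 genes per list. Among these, 2 sites are not reported here. Those with 3 members, the SS18::SSX overlaps, and examples of shared promoters were named after their values were seen. Members, lists, motifs, and comparisons were chosen with earlier results of these data known. Alternatives were other overlaps, stricter peaks, other promoters and start sites, and regions of high background. Python 3.11.15, numpy 2.4.6, scipy 1.17.1, and pandas 2.3.3 were used.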

Additional observations from a re-analysis of the deposited data

How the results depend on the processing

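With 1 library per condition nothing could be left out, and the values below are descriptions. No paired analysis was possible because every group held 1 library and no test was run. The number of members and the share of WDR5-only promoter peaks kept depended on what counts as kept. They were 1726 and 20.3% when MS67 peaks had to cover at least 50% of the DMSO peak, 4827 and 56.8% with an MS67 peak within 1 kb, 384 and 20.9% with −log10 q above 3 and fold above 6 in both lists, and 584 and 14.7% with −log10 q above 5. The shallower MS67 library limits this share. In the order of these 4 settings, the median GC content was 64.7, 62.7, 65.2, and 64.7%. The median ratio was 1.45 with 50% coverage, 1.31 with the fold limit, and 1.50 with −log10 q above 5, and the median summit position was −276 bp within 1 kb, −204 bp with the fold limit, and −218 bp (−217.5) with −log10 q above 5. Cytosolic ribosomal protein genes with a member numbered 16 within 1 kb and 0 under both stricter calls, members with an SS18::SSX MS67 peak made up 0% with −log10 q above 5, and divergent start sites 24.7% with the fold limit.

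The promoter definition set the position. The median summit was at +54 bp with promoters from −500 to +500 bp, where the share kept was 40.0%, GC 64.7%, divergent start sites 20.9%, and ribosomal protein genes 5. It was at −42 bp from −2000 to +500 bp (34.7% kept, 24.3% divergent), and at +106 bp with 4852 members and 19.7% divergent from −1000 to +1000 bp, a window added after the data were seen. Start sites of gene records alone gave −274 bp, 35.2% kept, 25.8% divergent, and 6 ribosomal protein genes. All transcripts (also added later) gave −191 bp, and protein-coding genes alone 11.4% divergent. With no SS18::SSX peak within 1 kb, 37.4% were kept. Over the whole DMSO peak GC was 63.5%. The GC difference between kept and lost sites, 2.99 percentage points in all, was 3.98 in the weakest and 1.49 in the strongest group. All motif shares were higher in windows of 401 bp. In the remaining comparisons, including those without the bins of highest background, the values stayed within the interval of the reported value or, for counts, within 1.5 times of it. Coverage scaling holds no spike-in correction, and a site without a MS67 peak may be bound below the depth of that library.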
